A study of Mus musculus with 126 samples.

Results

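The cholesterol synthesis module examined here consists of 28 genes, chosen by symbol from the 24883 rows that each of the 7 deposited colon expression tables holds. The rule that picks them uses no measured value. It holds 8 genes of the mevalonate arm, 10 of the sterol arm, 4 regulators of the transcription factor SREBP2 and 6 further SREBP2 targets or sterol transporters. The study measured poly(A) RNA from mouse colon by RNA-seq every 4 h over a day, at ZT0, ZT4, ZT8, ZT12, ZT16 and ZT20 (ZT is the number of hours after the lights came on, in a cycle of 12 h light and 12 h dark), with 3 libraries per time and 18 in each of 7 conditions. In the feeding experiment, 8-week-old male C57BL/6 mice received a low-salt or a high-salt diet, each offered only by day (day fed) or only by night (night fed), so that there were 4 feeding groups of 18 libraries. In the genotype experiment, wild-type mice, mice with a gut-specific Bmal1 knock out and mice with a gut-specific knock out of the mineralocorticoid receptor (MR) ate normal chow without time restriction. The knock out mice were 8 to 12 weeks old, while the sources used here leave out the wild-type age, the Cre driver and the hours of food access. Hours from the feeding phase were therefore counted from lights on for day fed mice and from lights off for night fed mice.

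Cells make cholesterol from acetyl-CoA through mevalonate and isoprenoid intermediates to squalene, which is closed into lanosterol and trimmed to cholesterol. SREBP2, the product of Srebf2, is held in the endoplasmic reticulum by SCAP and the INSIG proteins while sterols are plentiful, and is carried to the Golgi, cleaved and released to the nucleus when they run low, where it activates most genes of this pathway, its own gene and Insig1. In the gut the pathway supplies cholesterol to an epithelium that is continually renewed, beside what is absorbed from the diet.

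The promoters of 4 members are shown because they carry the letters of a sterol regulatory element or of the E-box CACGTG, the motif that the BMAL1-CLOCK pair and the SREBP proteins can bind. They are the 250 bases before the gene start from RefSeq, build GRCm38.p6, written 5′ to 3′ on the gene's strand, with the motif letters in capitals. The Hmgcs1 sequence is chr13:119690101-119690350 on the plus strand and the capitals mark TCACNCCAC, the Srebf2 sequence is chr15:82147019-82147268 on the plus strand and they mark TCACCCCA, the Hsd17b7 sequence is chr1:169969206-169969455 on the minus strand and they mark CACGTG and TCACCNCAC, and the Insig1 sequence is chr5:28071162-28071411 on the plus strand and they mark CACGTG.
Hmgcs1: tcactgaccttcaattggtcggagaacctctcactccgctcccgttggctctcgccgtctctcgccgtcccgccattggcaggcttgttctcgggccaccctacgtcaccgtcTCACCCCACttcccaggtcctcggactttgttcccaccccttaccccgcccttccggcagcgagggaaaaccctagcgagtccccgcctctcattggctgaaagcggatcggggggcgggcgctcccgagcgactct
Srebf2: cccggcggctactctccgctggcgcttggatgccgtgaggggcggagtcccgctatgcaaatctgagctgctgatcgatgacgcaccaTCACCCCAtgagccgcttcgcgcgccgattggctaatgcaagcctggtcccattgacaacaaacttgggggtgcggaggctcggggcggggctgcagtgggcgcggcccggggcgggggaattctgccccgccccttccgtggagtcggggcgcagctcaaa
Hsd17b7: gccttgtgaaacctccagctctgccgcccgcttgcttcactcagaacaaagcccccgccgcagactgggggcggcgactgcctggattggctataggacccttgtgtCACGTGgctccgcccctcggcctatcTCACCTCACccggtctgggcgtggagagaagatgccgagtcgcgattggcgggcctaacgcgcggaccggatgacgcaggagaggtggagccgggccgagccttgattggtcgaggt
Insig1: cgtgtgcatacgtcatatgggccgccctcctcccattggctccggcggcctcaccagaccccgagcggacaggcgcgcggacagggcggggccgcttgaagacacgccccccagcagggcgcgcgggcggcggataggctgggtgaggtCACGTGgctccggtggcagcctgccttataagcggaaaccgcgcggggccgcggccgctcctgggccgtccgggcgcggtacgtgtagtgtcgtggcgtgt
RefSeq promoters were matched for 24 of the 28 members (not for Fdps, Fdft1, Sqle and Stard4), and the motifs were searched on both strands of the window from 250 bases before to 50 bases after the start. TCACNCCAC was in 1.24% of 32851 promoters and, among members, in Hmgcs1. TCACCCCA was in 1.56% of promoters and in Hmgcs1 and Srebf2, TCACNCCA in 4.36% and in the same pair, and TCACCNCAC in 1.32% and in Hmgcs1 and Hsd17b7. In Hmgcs1 these forms are one and the same site. CACGTG was in 7.15% of promoters and in Hsd17b7, Sc5d, Dhcr7, Scap, Insig1 and Abca1. The general motifs CCAAT (37.4% of promoters) and GGGCGG (35.7%) were in 19 and 20 members.

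Values are FPKM, fragments scaled by transcript length and by mapped library size, divided here by one scale factor per library so that the typical gene is level across libraries (rescaled FPKM). Of the 28 members, 26 reached a mean of 1 rescaled FPKM in at least 1 condition and were tested among 11380 rows. The sterol exporter gene Abca1 and the intestinal sterol importer gene Npc1l1 did not, with highest condition means of 0.425 and 0.224, and Lpin1 lay just inside at 1.18. Abca1 ranged from 0.147 to 0.717 in wild-type libraries, with a median of 0.392, and from 0.0316 to 0.219 in Bmal1 knock out libraries, with a median of 0.0762. Its median was below the wild type in the other conditions too. It was 0.131 in the MR knock out and 0.132 to 0.243 in the feeding groups, and these differences were not tested. A gene was called rhythmic where a 24 h wave fitted to its 6 time means passed limma's F test at a Benjamini-Hochberg adjusted p under 0.05, and its amplitude is the distance from mid-level to peak in log2 units. The labels do not say whether the 3 libraries of a group are separate mice, so p-values measure the spread between these samples. In bulk colon RNA, fewer cells of a type and less RNA per cell cannot be told apart.

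Scale factors ran from 0.297 to 1.48, and 14 libraries lay under 0.6, 9 of them Bmal1 knock out and 5 high salt night fed. The Bmal1 knock out libraries formed 2 sets, 5 with scale factors of 1.22 to 1.48 at ZT0, ZT4 and ZT8, and 13 with 0.297 to 0.778. The deposited FPKM of a library summed to between 158029 and 660895, and relative depth, read from the steps between low values, ran from 0.616 to 2.14 times the median library. Epithelial markers (Epcam, Cdh1, Krt8, Krt19, Vil1) summed to 4307 to 10620 rescaled FPKM in every library and surface colonocyte markers to 2025 to 12344, against at most 4.34 for smooth muscle, 12.2 for leukocytes, 11.6 for macrophages, 9.61 for adipocytes, 1.27 for enteric neurons and glia and 229 for small intestine. Myh11 and Des averaged under 0.1 in every condition. Surface colonocyte markers differed between times, with means of 4331 at ZT12 and 2249 at ZT4 in low salt night fed mice and 6498 at ZT4 and 2589 at ZT20 in the Bmal1 knock out. The part of these markers in the results below was not tested.

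On the low-salt diet, day feeding came with a strong daily wave across the pathway. In day fed mice 21 of 26 members were rhythmic, where 42.2% of all tested genes were, and in night fed mice 3 were, where 22.6% of all were. The median amplitude of the members was 0.38 by day feeding and 0.18 by night feeding, against 0.19 and 0.15 for all tested genes. The fitted peaks of the rhythmic day fed members fell at ZT3.0 to ZT8.4 and the lowest time mean of 19 members was at ZT16, whereas 14 members were highest at ZT20 and 15 lowest at ZT4 in night fed mice. The summed epithelial markers of low salt day fed mice were also highest by day, with a mean of 8501 at ZT8, and lowest at ZT16, at 5940, with 2 of 5 rhythmic.

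Hmgcs1, the cytosolic synthase that makes the substrate of the pathway's committed step, had the largest amplitude of the day fed members. In day fed mice it stood at 82.6, 99.4 and 74 rescaled FPKM at ZT4 and at 19.8, 13.9 and 23.8 at ZT16. All 3 ZT16 libraries lay under all 15 others of that condition, of which the lowest was 37.3. Its amplitude was 0.84 ± 0.10 (SE) with a peak at ZT4.1, limma adjusted p = 4.62e-08, and the ratio of the highest to the lowest time mean was 4.45. Night fed mice had 67.6, 92.6 and 105 at ZT20 and 64.6, 46.3 and 42.8 at ZT4, with an amplitude of 0.29 ± 0.10 that missed the threshold at an adjusted p of 0.0655. The ZT20 and ZT4 libraries of night fed mice did not overlap, but the 3 at ZT0 (78, 41.1 and 75.5) spanned most of the range between them.

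**Figure D1:**
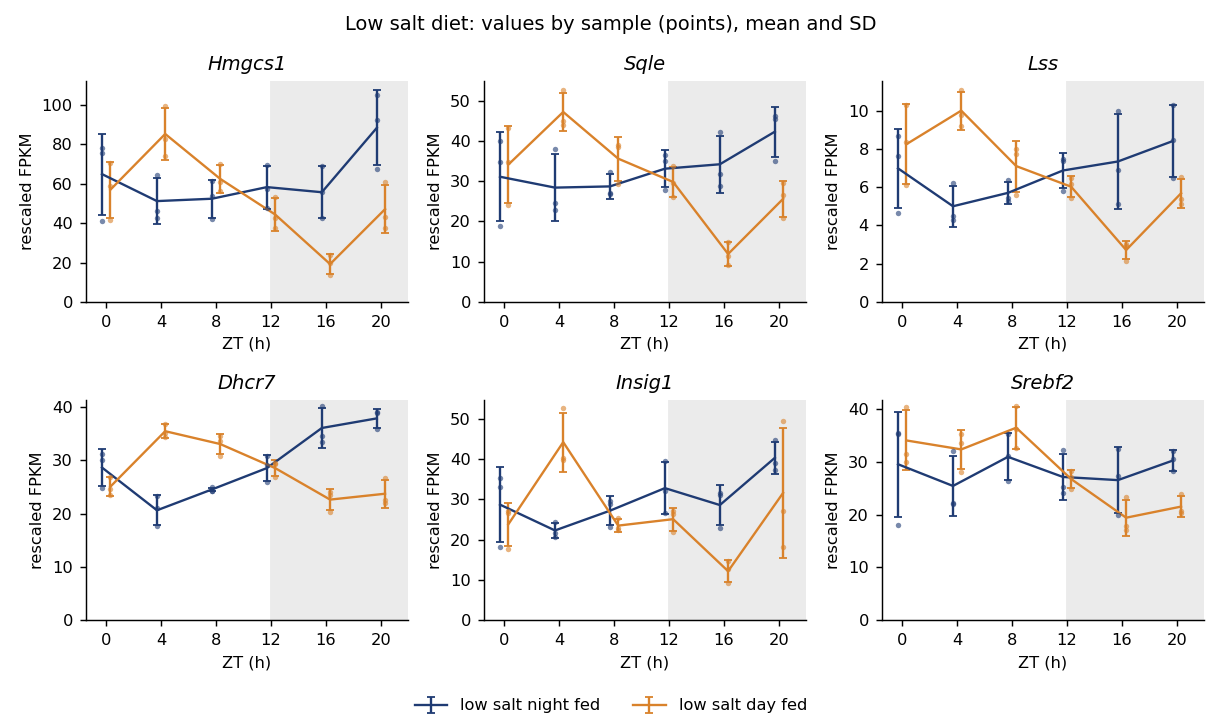
Rescaled FPKM against ZT for 6 members on the low-salt diet in night fed and day fed mice; points are libraries, lines join the means of 3 libraries and bars are SD, with darkness shaded. All 6 are lowest at ZT16 in day fed mice, where the Hmgcs1 libraries read 13.9 to 23.8.

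The other genes of the mevalonate arm moved with it in day fed mice, at smaller amplitudes. Idi1, the isomerase that activates the isoprene unit, had an amplitude of 0.66 ± 0.11 with a peak at ZT3.4, limma adjusted p = 0.000189. Acat2, the thiolase at the pathway's entry, had 0.45 at ZT5.3, and the farnesyl and geranylgeranyl diphosphate synthases Fdps and Ggps1 had 0.35 and 0.31. The kinases Mvk and Pmvk and the decarboxylase Mvd had 0.32, 0.30 and 0.34. Pmvk peaked last of the rhythmic members, at ZT8.4, with 54.5, 68.7 and 48.9 at ZT8 against 33.2, 30.7 and 25.1 at ZT16. All 8 genes of this arm were thus rhythmic in low salt day fed mice, and of them only Acat2 was in low salt night fed mice.

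In the sterol arm 8 of 10 genes were rhythmic in low salt day fed mice. Sqle, the oxygen-requiring epoxidase that acts on squalene, read 43.9, 52.7 and 44.9 at ZT4 and 11.4, 9.18 and 15 at ZT16. Its ZT16 libraries did not overlap those of any other time. Its amplitude was 0.77 ± 0.09 at ZT4.4, limma adjusted p = 5.64e-08. Lss, the cyclase that forms lanosterol, read 9.21 to 11.1 at ZT4 and 2.16 to 3.05 at ZT16, with an amplitude of 0.69 ± 0.09. Hsd17b7, which acts in the removal of sterol methyl groups, read 4.29 to 5.46 and 0.97 to 1.69 at these times, with an amplitude of 0.68 ± 0.11. The demethylase Cyp51 had 0.54 ± 0.07, Nsdhl, its successor in demethylation, 0.51 ± 0.06, the desaturase Sc5d 0.40 and squalene synthase Fdft1 0.34. The isomerase Ebp and the reductase Tm7sf2 were not called, at amplitudes of 0.09 and 0.16.

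Dhcr7, the reductase of the last step, was rhythmic in all 7 conditions. In low salt night fed mice it read 40.2, 34.5 and 33.4 at ZT16 and 35.9, 38.8 and 38.9 at ZT20, against 23.2, 21 and 17.7 at ZT4. In low salt day fed mice the order was turned, with 35.1, 36.8 and 34.3 at ZT4 and 24, 20.3 and 23.5 at ZT16. In both conditions the 6 libraries of its 2 highest times lay above the 12 others. The peak stood at ZT17.7 ± 0.4 (SE) at night feeding and ZT6.4 ± 0.5 at day feeding, which is 5.7 h and 6.4 h into the feeding phase, with amplitudes of 0.41 and 0.32 (limma adjusted p = 5.31e-11 and 1.66e-07).

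Among the regulators, Srebf2 and Insig1 were rhythmic in low salt day fed mice and none was in low salt night fed mice. Insig1, the gene of a retention protein and itself activated by SREBP2, read 52.6, 40.3 and 39.7 at ZT4 and 12.7, 9.35 and 14.7 at ZT16. These ZT16 libraries lay below all others of the condition. Its amplitude was 0.54 ± 0.10 at ZT3.6, limma adjusted p = 0.000413. Srebf2 read 32.6, 40.5 and 36.2 at ZT8 and 17.9, 17 and 23.3 at ZT16, with an amplitude of 0.44 ± 0.08 at ZT5.0. In night fed mice its amplitude was 0.01 ± 0.08. Insig2 and Scap, the escort that SREBP2 needs, had amplitudes of 0.09 and 0.06 in day fed mice and did not pass.

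Of the other targets, Stard4, a soluble sterol carrier, had an amplitude of 0.60 ± 0.12 at ZT3.5 in low salt day fed mice (limma adjusted p = 0.00156), with 27.1 to 34 at ZT4 and 9.92 to 18.4 at ZT16. Lpin1, a phosphatidate phosphatase, had 0.36, and Fads2, a desaturase of long fatty acids, 0.39 at ZT6.1. Tmem97, an endoplasmic reticulum protein that binds sterols, had 0.09 and was not called in any of the 7 conditions.

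**Figure D2:**
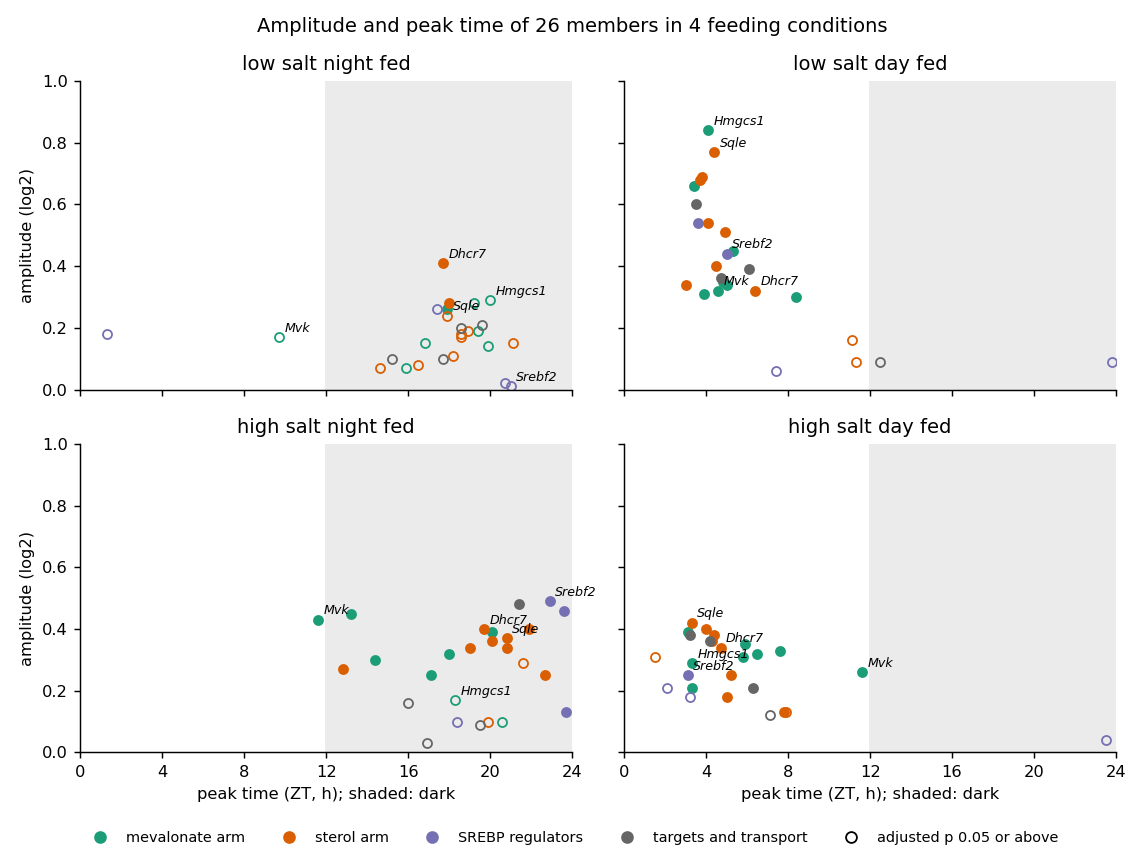
Amplitude (log2) against peak time (ZT) of the 26 tested members in the 4 feeding conditions; colours give the members' roles, filled points passed the threshold and open points did not. On low salt, the 21 filled day fed points lie between ZT3.0 and ZT8.4 and reach 0.84, while at night feeding 3 points are filled, Acat2, Lss and Dhcr7, between ZT17.7 and ZT18.0.

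The low-salt waves of the 2 feeding times were compared directly. At the same ZT, 21 of 26 members differed in rhythm between day fed and night fed mice, where 38.6% of all tested genes did. The median size of the difference, the length of the vector between the 2 fitted waves, was 0.52 log2 units for members and 0.27 for all. It was largest for Hmgcs1 at 1.02 (limma adjusted p = 5.19e-07), Sqle at 0.99, Lss at 0.94, Idi1 at 0.84, Insig1 at 0.79 and Hsd17b7 at 0.77. The 5 members that were not called were Mvk, Ebp, Insig2, Scap and Tmem97.

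Counting hours from the feeding phase brought the low-salt waves closer. Of the 26 members, 9 then differed between day and night feeding, where 23.2% of all tested genes did, with a median difference of 0.27 against 0.23 for all. The members called were Hmgcs1 at 0.73 (limma adjusted p = 0.000614), Hsd17b7 at 0.60, Idi1 at 0.56, Sqle at 0.55, Lss at 0.48, Srebf2 at 0.43, Cyp51 at 0.41, Mvk at 0.40 and Nsdhl at 0.36. Mvk was the one of these not called at the same ZT, where its difference was 0.33 (limma adjusted p = 0.0585). Acat2, Lss and Dhcr7, the 3 members rhythmic in both groups, had peaks within 3 h of a 12 h shift. Among all genes rhythmic in both, 388 of 1010 (38.4%) shifted so. Called or not, 18 of the 26 members had peaks within that window, against 9 on high salt. Most of these 18 were not rhythmic in night fed mice, and the SE of the shift was 7.5 h for Scap. The fitted amplitude was larger at day feeding in 23 of the 26, against 13 on high salt. These counts over all 26 have no share of all tested genes beside them. The clock genes moved in these libraries too: Nr1d1 peaked at ZT9.6 in night fed and ZT23.8 in day fed mice, and Dbp at ZT12.3 and ZT2.7.

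The median of the 18 enzymes put the same wave in one line per library, as the deviation from each gene's own mean in its condition. In low salt day fed mice it stood at 0.32, 0.46 and 0.30 log2 units at ZT4 and at -0.67, -0.69 and -0.57 at ZT16. In low salt night fed mice it ran from a mean of -0.20 at ZT4 to 0.23 at ZT20, and in wild-type mice on chow from -0.08 to 0.08. The median of all tested genes stayed between -0.05 and 0.06 in low salt day fed mice. The rescaling levels the typical gene across libraries, so this flat median was largely set in advance. It is no contrast to the enzymes.

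**Figure D3:**
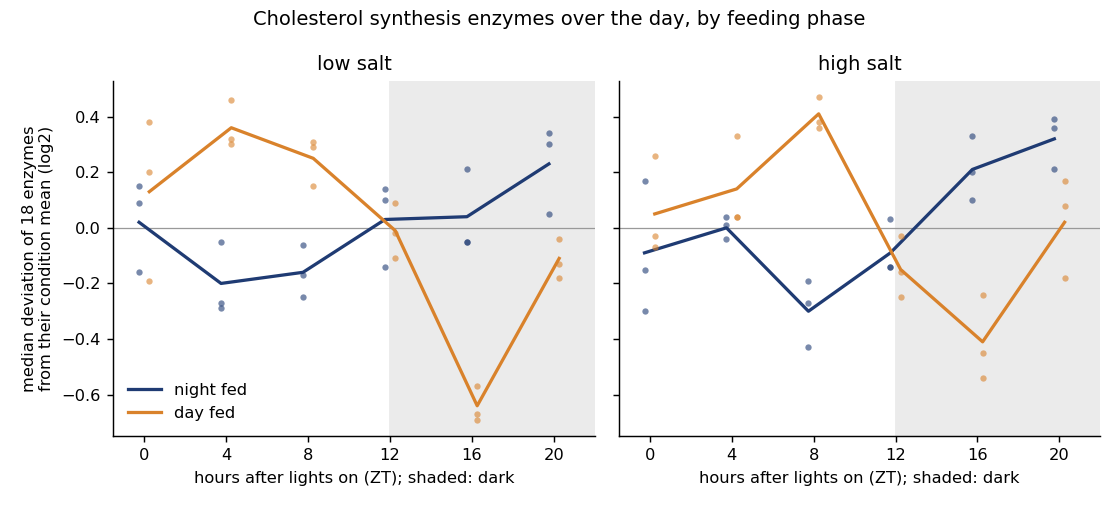
Median deviation (log2) of the 18 enzymes from each gene's own condition mean, against ZT, in the 4 feeding conditions, with darkness shaded; points are libraries, lines their means. Day fed mice have the lower troughs, with means of -0.64 on low salt and -0.41 on high salt, both at ZT16.

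No single library moved the count of rhythmic members in low salt day fed mice by over 1.5 times, but without rescaling 11 members were rhythmic there and 12 differed from night feeding. The night fed count of 3 rose to 9 without the second ZT0 library, to 5 without the first ZT4, the third ZT12 or the third ZT16 library, and to 21 with libraries weighted by their spread. The count of 9 by hours from the feeding phase was 0 to 4 when 1 replicate number was left out.

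On the high-salt diet both feeding times came with rhythmic members, at amplitudes that differed less. In night fed mice 18 of 26 members were rhythmic, where 57% of all tested genes were, and in day fed mice 20 were, where 31.6% of all were. Median amplitudes were 0.31 and 0.30 for members, against 0.22 and 0.18 for all. At night feeding 16 members were highest at ZT20 and 14 lowest at ZT8, and at day feeding 16 were highest at ZT8 and 17 lowest at ZT16.

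The largest amplitudes at night feeding on high salt belonged to Srebf2 and 5 others. Srebf2 read 30.6, 31.3 and 28.8 at ZT20 and 16.7, 15.5 and 14.8 at ZT8, with an amplitude of 0.49 ± 0.08 at ZT22.9 (limma adjusted p = 2.37e-05), and these libraries did not overlap. Fads2 had 0.48 at ZT21.4, Insig2 0.46 at ZT23.6, Mvd 0.45 at ZT13.2, Mvk 0.43 at ZT11.6 and Dhcr7 0.40 at ZT19.7. Mvk, Mvd and Pmvk (ZT14.4) thus peaked near lights off, while the sterol arm genes Sqle, Cyp51, Nsdhl and Sc5d peaked between ZT20.1 and ZT21.9. Fdft1, which leads from the one arm to the other, peaked at ZT12.8 with an amplitude of 0.27.

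At day feeding on high salt the 6 largest amplitudes were those of Sqle, Sc5d, Idi1, Cyp51, Stard4 and Lss. Sqle had 0.42 ± 0.09 at ZT3.3, limma adjusted p = 0.00141, with 43.7, 31.2 and 36.4 at ZT4 and 14.4, 16.5 and 26.5 at ZT16, which did not overlap. Sc5d had 0.40, Idi1 0.39, Cyp51 and Stard4 0.38 each and Lss 0.36. Hmgcs1 passed narrowly at 0.29 ± 0.10 (limma adjusted p = 0.0466). Its ZT16 libraries read 30.8, 33.3 and 55.6. Dhcr7 again separated the times, with 34.8 to 36.4 at ZT8 and 18.1 to 23 at ZT16, a peak at ZT4.7 and an adjusted p of 3.61e-08. Mvk peaked at ZT11.6, the same ZT as in night fed mice, and read 26.2, 24.6 and 22.9 at ZT8 and 13.1, 15.6 and 11.7 at ZT4.

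Between high salt day fed and night fed mice, 18 of 26 members differed in rhythm at the same ZT, where 32.5% of all tested genes did, with a median difference of 0.46 against 0.24. The largest were Dhcr7 at 0.69 (limma adjusted p = 1.62e-13), Lss and Fads2 at 0.66, Cyp51 at 0.65, Fdps at 0.63 and Idi1 at 0.62. By hours from the feeding phase 16 differed, where 57.2% of all tested genes did, with a median of 0.29 against 0.32. These were led by Mvk at 0.70 (limma adjusted p = 2.07e-05), Srebf2 at 0.65, Insig2 at 0.64, Sc5d at 0.55, Fads2 at 0.54 and Sqle at 0.52. Of the 15 members rhythmic in both groups, 4 had peaks within 3 h of a 12 h shift (Acat2, Fdps, Lss and Dhcr7), and 255 of 2745 genes (9.29%) did. The clock genes did not move together on high salt. Nr1d1 peaked at ZT9.5 in night fed and ZT15.7 in day fed mice, and Dbp at ZT12.3 and ZT9.7. Arntl peaked at ZT0.6 and ZT22.2, and Per2 at ZT17.3 and ZT4.6.

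All 3 libraries at ZT8 and 2 at ZT12 of the high salt night fed mice had scale factors under 0.6, at the times when most sterol arm members were lowest and Mvk and Mvd were high. A fit of cosine and sine terms in place of time means gave 17 rhythmic members in high salt night fed mice, and the same fit without these libraries gave 1, while all rhythmic genes went from 6131 to 866. Members that differed in rhythm from day fed mice were 16 and 10 in these 2 fits (3162 and 1550 of all genes). By hours from the feeding phase they were 13 and 5 (6045 and 2814 of all genes). Without any night fed library at ZT8, the second fit had less power to find a 24 h wave, and its loss of calls decides nothing. The day fed count of 20 was 9 without the first ZT16 library, 10 without the first ZT4 library, 12 without the first ZT0 or the second ZT16 library and 13 without the third ZT0, the third ZT12 or the first ZT20 library.

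Rhythm was also compared between the diets, where the counts of members depended on the processing. They reached 24 at night feeding with FPKM as deposited and 21 at day feeding with libraries weighted by their spread. Between high salt and low salt night fed mice 2 members differed in rhythm, where 12.3% of all tested genes did, namely Srebf2 at 0.48 (limma adjusted p = 0.0169) and Dhcr7 at 0.20 (adjusted p = 0.0263). Between high salt and low salt day fed mice 2 differed, where 11.3% of all did, namely Hmgcs1 at 0.56 (adjusted p = 0.0112) and Mvk at 0.47 (adjusted p = 0.0156). The Hmgcs1 trough at ZT16 was 13.9 to 23.8 on low salt and 30.8 to 55.6 on high salt, with no overlap. The night fed count was 7 without the first ZT12 high salt library, 4 without the third ZT8 low salt library, 1 without the second ZT0 high salt library, and 0 without the second ZT12 high salt or the second ZT0 or the third ZT12 low salt library. With cosine and sine terms it was 1, and 0 with the libraries of scale factor under 0.6 also left out (947 and 2 of all genes). Those left out include all 3 high salt night fed libraries at ZT8, where Srebf2 was lowest.

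Mean levels over the day differed little between feeding times on low salt. Hmgcs1 alone was called, lower at day feeding by 0.33 log2 units (52.6 ± 22.4 against 61.8 ± 18 rescaled FPKM, SD, n = 18 each, limma adjusted p = 0.0411), where 1.04% of all tested genes were higher and 2.29% lower. That call was lost without any one of 20 of the 36 libraries, and 2 members were called without the third ZT8 night fed or the second ZT20 day fed library. The calls over all genes were 31.1% higher as rescaled, 47% as deposited and 41.9% after quantile normalization.

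On high salt, 5 members were higher at day feeding and 3 lower, where 14.7% of all tested genes were higher and 12.9% lower. Srebf2 (0.33) and Fads2 (0.33) led the higher ones, with Sc5d at 0.20, Insig2 at 0.19 and Scap at 0.13. Mvd (-0.27), Mvk (-0.22) and Fdft1 (-0.20) were lower, and turned to 0.18, 0.22 and 0.25 with the deposited FPKM, under which 24 members were higher, none lower and the all-gene median moved from 0.02 to 0.41. Of all calls, 53.3% were higher as rescaled and 99.6% as deposited. The count of 8 was 3 without the third ZT12 or the second ZT16 night fed library or the second ZT12, the third ZT16 or the third ZT20 day fed library. It was 4 without the first or the third ZT4, the third ZT8, the second ZT12 or the first ZT20 night fed library or the third ZT0 or the first ZT20 day fed library, 5 without the second ZT0 night fed or the third ZT4 or ZT8 day fed library. With cosine and sine terms it was 4, and 0 with the libraries of scale factor under 0.6 also left out (2765 and 806 of all genes).

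High against low salt at night feeding gave 1 member higher and 7 lower, where 15.4% of all tested genes were higher and 19.6% lower. Fads2 was lower by 0.72 log2 units, at 46.3 ± 15.9 against 74.8 ± 18 (SD, n = 18 each, limma adjusted p = 5.68e-07). Srebf2 (-0.33), Sc5d (-0.30), Sqle (-0.23), Dhcr7 (-0.18), Scap (-0.18) and Nsdhl (-0.16) were also lower and Pmvk higher by 0.23, which turned to -0.26 as deposited. Of all calls, 44% were higher as rescaled and 0.613% as deposited, with an all-gene median of -0.45 in place of -0.02. The count of 8 was 5 without the third ZT0, the first ZT4 or the third ZT12 low salt library or the second ZT12 or the second ZT16 high salt library. With cosine and sine terms it was 5, and 2 with the libraries of scale factor under 0.6 also left out (3600 and 1546 of all genes). At day feeding Ggps1 (0.24) and Insig2 (0.21) were higher on high salt and Fads2 lower at -0.44 (limma adjusted p = 0.00209), where 7.79% of all were higher and 7.05% lower. The share of all calls that were higher was 52.5% as rescaled and 25.7% as deposited.

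The other genes of the pathway were read from 5 lists. Of all tested genes, 22.6% and 42.2% were rhythmic in low salt night and day fed mice. On high salt 57% and 31.6% were. Of the 10 genes of SREBP-driven fatty acid synthesis, 7 were rhythmic in low salt night fed mice and 9 in each of the 3 other feeding groups. The mean peak of those called was ZT19.6 and ZT5.8 at night and day feeding on low salt and ZT20.4 and ZT4.2 on high salt. All 10 differed in rhythm between feeding times on either diet, where 38.6% of all tested genes did on low salt and 32.5% on high salt. By hours from the feeding phase 2 did on low salt and 8 on high salt, where 23.2% and 57.2% of all did. Scd2, a stearoyl-CoA desaturase, had amplitudes of 0.69 and 0.83 on low salt, and Srebf1, the gene of the fatty acid regulator SREBP1, had 0.46 and 0.48 with peaks at ZT19.3 and ZT7.4. Of the 6 genes of SREBP processing and turnover, 1, 4, 5 and 1 were rhythmic in low salt night fed, low salt day fed, high salt night fed and high salt day fed mice. Mbtps2, a protease that cleaves SREBP, had 0.46 at ZT4.0 in low salt day fed mice.

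In the same order of feeding groups, 2, 6, 8 and 5 of 10 tested genes of sterol transport and esterification were rhythmic. So were 1, 4, 6 and 4 of 9 in the isoprenoid branch, and 2, 1, 3 and 4 of 5 tested genes of LXR and sterol efflux. The shares of all tested genes in that order were 22.6%, 42.2%, 57% and 31.6%. The high salt night fed counts include the 5 libraries of scale factor under 0.6. Gramd1b, which carries sterol between membranes, had 0.45 at ZT2.7 in low salt day fed mice. Fntb, a farnesyltransferase subunit, peaked at ZT14.8 in high salt day fed mice. At the same ZT, 7, 4, 2 and 2 genes of the sterol transport, isoprenoid, LXR and processing lists differed in rhythm between low salt feeding times, and 4, 4, 3 and 1 between those on high salt. By hours from the feeding phase these counts were 0, 0, 1 and 1 on low salt and 8, 6, 4 and 5 on high salt. The shares of all tested genes at the same ZT were 38.6% on low salt and 32.5% on high salt. By hours from the feeding phase they were 23.2% and 57.2%.

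Amplitudes were smaller in wild-type mice on chow. There 3 of 26 members were rhythmic, where 17.7% of all tested genes were, with a median amplitude of 0.10 against 0.14 for all. Mvk had 0.31 ± 0.07 at ZT7.0 (limma adjusted p = 0.00605), Lpin1 0.38 at ZT1.4 and Dhcr7 0.23 at ZT20.0. Dhcr7 read 36.3, 35.9 and 38.8 at ZT20 and 26.4, 28.2 and 20.4 at ZT8, without overlap. In MR knock out mice 4 were rhythmic (Mvk, Fdft1, Dhcr7 and Ggps1), where 21.7% of all were, with a median amplitude of 0.13 against 0.17. No member differed in rhythm between MR knock out and wild type by limma, where 0.835% of all tested genes did, none at an unadjusted p under 0.05, and 6 did with libraries weighted by their spread. The MR knock out count of 4 was 7 without the second ZT0 library and 2 without the second ZT4 or the third ZT20 library.

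The targeted genes were read first as a check of the genotype labels. Arntl, which encodes BMAL1, ranged from 2.88 to 6.29 rescaled FPKM with a median of 4.04 in Bmal1 knock out libraries and from 2.25 to 19.2 with a median of 8.29 in the wild type, a difference of -0.68 ± 0.09 (limma adjusted p = 1.41e-08). Its amplitude was 0.25 in the knock out and 1.43 in the wild type. Nr3c2, which encodes MR, ranged from 1.66 to 5.34 in MR knock out and from 7.07 to 23.3 in wild-type libraries, without overlap, a difference of -2.11 ± 0.15. Nr3c2 was also lower in the Bmal1 knock out, at -1.25 ± 0.15, where it read 3.23 to 14 with a median of 4.81 and overlapped the wild type. Whether it differs between the 2 sets of Bmal1 knock out libraries was not tested. Which exons were deleted is not stated in the sources used here, and reads from outside them could not be set apart.

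In the Bmal1 knock out 8 members were higher than in the wild type, where 31.1% of all tested genes were. Another 11 were lower, where 49.2% of all were. Neither count of the 26 members lies above the share of all tested genes. The higher members were Mvd by 0.82 ± 0.10 log2 units, Pmvk by 0.81 ± 0.08, Mvk by 0.74 ± 0.07 and Fdft1 by 0.62. Fdps was higher by 0.59, Tmem97 by 0.55, Cyp51 by 0.34 and Acat2 by 0.27. Each of these 8 was higher at all 6 times, and with FPKM as deposited none was. Pmvk read 45.7 ± 6.24 in the knock out and 26.1 ± 4.89 in the wild type (SD, n = 18 each, limma adjusted p = 1.56e-11). The lower members included the regulators Srebf2 at -0.79 ± 0.11, Scap at -0.67 and Insig2 at -0.53, while Insig1, at -0.10, was not called. The sterol genes Tm7sf2 (-0.65), Sc5d (-0.60), Hsd17b7 (-0.45) and Dhcr7 (-0.37) were lower, as was Fads2 at -1.30 ± 0.16 (limma adjusted p = 4.7e-09). Stard4 (-0.44), Lpin1 (-0.23) and Ggps1 (-0.21) were lower too. The medians were -0.04 for members and -0.13 for all genes.

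The 2 sets of Bmal1 knock out libraries differed in these genes. The 5 of higher scale factor were 3 at ZT4 and 1 each at ZT0 and ZT8. The fit to them weighs the 3 times equally, so it leans on those 2 single libraries. The 5 with scale factors of 1 or more read 34.2 to 41.6 for Srebf2 and 49.4 to 69.7 for Fads2, and the 13 others 12.2 to 19.2 and 18.2 to 29.1, without overlap, while wild-type libraries read 20.4 to 43.5 and 50.4 to 93.3. With the 5 alone, at ZT0, ZT4 and ZT8, 9 members were higher than in the wild type and none lower, where 5.14% and 7.2% of all tested genes were. Fdps stood at 0.72, Pmvk at 0.63, Lss at 0.54, Cyp51 at 0.50, Sqle at 0.49, Tmem97 at 0.44, Mvk at 0.41, Fdft1 at 0.39 and Nsdhl at 0.36, whereas Srebf2 stood at 0.19 (limma adjusted p = 0.524) and Fads2 at -0.27 (adjusted p = 0.599). With the 4 knock out libraries of lower scale factor at ZT0 and ZT8, 6 members were higher and 12 lower, where 26.3% and 42.9% of all tested genes were. Mvk, Pmvk, Fdps, Fdft1, Cyp51 and Tmem97 were thus called higher in all libraries and in the 5, and the lower calls were absent from the 5. With so few libraries, a missing call alone does not show that a difference is absent. A covariate for how far each library leans to long transcripts gave 13 members higher and 3 lower, with Srebf2 at -0.09, and turned the sign of Hsd17b7 (0.18), Ggps1 (0.14), Stard4 (0.49) and Lpin1 (0.26). Of all calls, 38.7% were higher as rescaled, 3.49% as deposited (all-gene median -0.89) and 51.6% with that covariate.

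**Figure D4:**
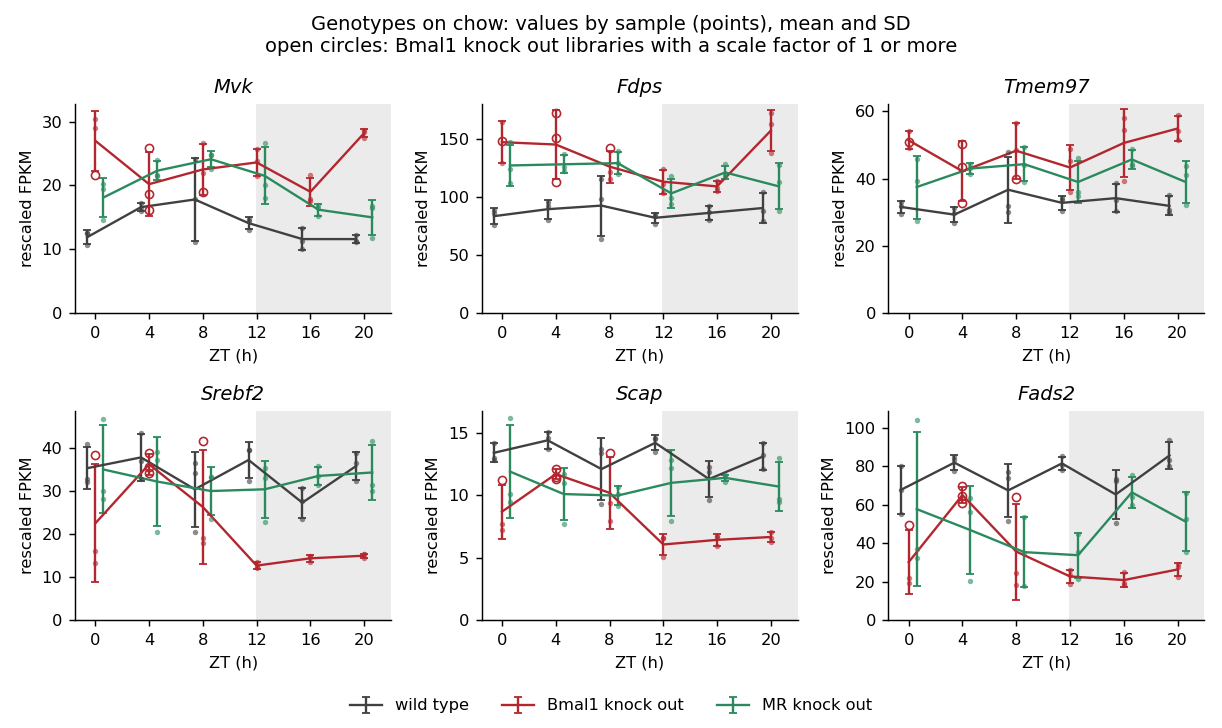
Rescaled FPKM against ZT for 6 members in wild-type, Bmal1 knock out and MR knock out mice; points are libraries, open circles the 5 Bmal1 knock out libraries with scale factors of 1 or more, lines the means of 3 libraries with SD. The open circles for Srebf2, 34.2 to 41.6, lie within the wild-type range of 20.4 to 43.5, and the other Bmal1 knock out libraries, 12.2 to 19.2, below it.

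In the Bmal1 knock out 15 members were rhythmic, where 56.7% of all tested genes were, with a median amplitude of 0.26 against 0.24 for all. Srebf2 had 0.66 ± 0.11 at ZT4.1, Fads2 0.63, Tm7sf2 0.50, Mvd 0.49 at ZT17.8, Hsd17b7 0.48 and Lss 0.46. In rhythm 10 differed from the wild type, where 31.2% of all did, led by Srebf2 at 0.57 (limma adjusted p = 0.0197), Mvd at 0.54, Mvk at 0.43, Tm7sf2 at 0.40, Insig2 at 0.38 and Scap at 0.36. All 3 libraries at ZT4, and none at ZT12, ZT16 or ZT20, belonged to the set with scale factors of 1 or more, so time and set cannot be told apart there. With cosine and sine terms 15 members were rhythmic and 10 differed from the wild type, and with the libraries of scale factor under 0.6 also left out 2 were rhythmic and none differed. All rhythmic genes went from 6285 to 753 and all that differed in rhythm from 3323 to 279. The libraries left out were all 3 at ZT12, all 3 at ZT16, 2 at ZT20 and 1 at ZT0. The second fit thus had little power to find a 24 h wave, and its loss of calls decides nothing.

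The MR knock out was compared with the same wild-type libraries, so the 2 knock out comparisons are not independent. There 8 members were higher, where 24.7% of all tested genes were, and 7 lower, where 41.3% were. The count of 15 was 8 when all libraries numbered 1 were left out. Mvk and Pmvk were higher by 0.48 each, Fdps and Fdft1 by 0.45, Mvd by 0.43, Tmem97 by 0.33, Sqle by 0.29 and Cyp51 by 0.18. Fdft1 read 31.3 ± 4.83 against 22.8 ± 4.17 in the wild type (SD, n = 18 each, limma adjusted p = 6.58e-07). Lower were Fads2 at -0.74 ± 0.16 (adjusted p = 0.000183), Stard4 (-0.48), Scap (-0.27), Lpin1 (-0.27), Tm7sf2 (-0.23), Ggps1 (-0.23) and Insig1 (-0.22). With the transcript length covariate 13 members were higher and none lower, Stard4 and Lpin1 turned to 0.08 and 0.01, and Srebf2 from -0.06 to 0.35. Of all calls, 37.5% were higher as rescaled, 16% as deposited and 48.3% with the covariate. The length score averaged 0.17 ± 0.105 (SD, n = 18) in the wild type and -0.102 to 0.00698 in the other 6 conditions, and its part in these differences was not tested beyond these fits.

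Among all tested genes, 31.1% were higher in the Bmal1 knock out and 49.2% lower. Of the pathway lists, all 6 genes of SREBP processing and 8 of 10 of fatty acid synthesis were lower there. None was higher, and the medians were -0.68 and -0.60. With the 5 Bmal1 knock out libraries of scale factor 1 or more, 1 and 0 of them were lower, with medians of -0.20 and 0.16, and with the length covariate 4 and 1 were. Sterol transport had 2 higher and 8 lower, LXR and efflux 1 and 3, and the isoprenoid branch 3 and 3. Their medians were -0.64, -0.51 and -0.02, and with the 5 libraries -0.14, -0.22 and 0.04. With the length covariate sterol transport had 0 higher and 4 lower, LXR and efflux 0 and 2, and the isoprenoid branch 2 and 0. In the MR knock out, where 24.7% of all were higher and 41.3% lower, SREBP processing had 5 lower and none higher. With the length covariate it had 0 lower and 1 higher. Fatty acid synthesis had 2 higher and 4 lower, sterol transport 1 and 4, LXR and efflux 0 and 2, and the isoprenoid branch 2 and 2. In the same order, these lists had 4 and 2, 4 and 2, 1 and 2, and 2 and 1 with the length covariate. Acly, the enzyme that makes cytosolic acetyl-CoA, was lower in both, at -0.99 ± 0.13 in the Bmal1 knock out (limma adjusted p = 3.3e-08), and passed in the MR knock out at a limma adjusted p of 1.13e-07.

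Across the 7 conditions the order of the enzymes by level per transcript length was led by Fdps. Its mean was 87.3 in the wild type, 133 ± 23.8 in the Bmal1 knock out (SD, n = 18) and between 105 and 120 in the 5 other conditions. Hsd17b7, Ggps1 and Lss were the lowest, with Hsd17b7 at means of 2.63 to 3.59. The median enzyme stood between 22.3 in the wild type and 27.4 in the MR knock out. For the genes highest in the knock outs, the feeding groups, which were not tested against chow, lay above the wild type as well. Mvk averaged 13.9 ± 3.49 in the wild type, 23.4 ± 4.49 and 19.5 ± 4.07 in the Bmal1 and MR knock outs and 18.9 to 21.9 in the 4 feeding groups (SD, n = 18 each). Fdft1 averaged 22.8 in the wild type, 35.4 and 31.3 in the knock outs and 29 to 33.3 in the feeding groups.

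**Figure D5:**
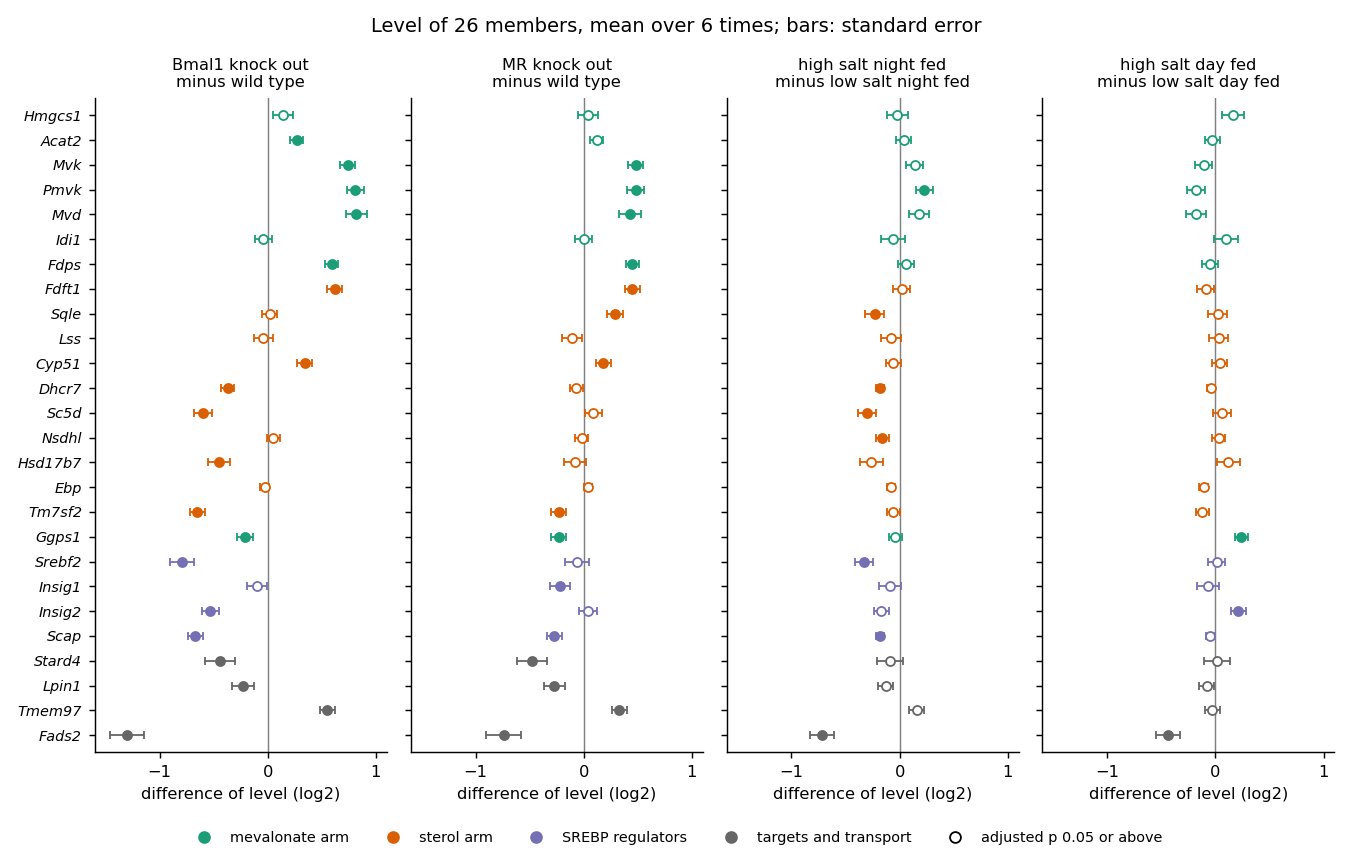
Level differences (log2, with SE) of the 26 tested members, mean over 6 times, for each knock out against the wild type and for high against low salt at each feeding time; filled points passed the threshold. Mvk, Pmvk, Mvd, Fdps and Fdft1 are above 0 in both knock outs and Fads2 is below 0 in both, at -1.30 and -0.74.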

How the data were processed

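RNA-seq of mouse colon was read from 7 tables, 1 per condition, of FPKM values deposited by the authors, made with TopHat2 2.1.1 and Cufflinks 2.2.1 on mm10 per the submitters' processing notes; the gene annotation and the program options were not found in these sources. Libraries were poly(A) selected and stranded per the labels' protocols. The condition of a library was taken from its table and the labels, and its time and replicate number from the column name. FPKM hold no read counts, so the precision of single values is not known and relative depth was read from the steps between low values. Each library was divided by a scale factor, 2 to the median log2 deviation over 6966 genes at 1 FPKM or more in every library. Genes with a mean of 1 in at least 1 condition (11380) were kept and log2(value + 0.5) was fitted, so fold changes of low genes are understated. Limma 3.58.1 in R 4.3.3 (lmFit, eBayes with trend and robust) fitted condition-by-time means, genotypes and feeding groups separately, with Benjamini-Hochberg adjustment over all tested genes at 0.05. Rhythm was an F test on the 24 h cosine and sine contrasts, a rhythm difference the same on their difference, and a level the mean over 6 times. The tests were checked on simulated data. The length score is the slope of a library's log2 deviations on log2 transcript length (96.2% of tested genes). Same-numbered libraries of different groups did not deviate together (mean r 0.00397 and -0.00224). Members are picked by symbol, by a rule that reads no measured value, but the members, lists and tests were chosen with earlier results of these data known. All 28 members were to be named, in full where called and among the 6 largest of a comparison, with up to 2 genes per pathway list by smallest adjusted p, and clock genes as timing references. Some genes of the pathway are not reported here. Alternatives changed the scaling, pseudocount, filter, weights, covariates, libraries and time model; leaving out single libraries, the subsets of Bmal1 knock out libraries and the pathway lists under them and other scalings were added after seeing the data.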

Additional observations from a re-analysis of the deposited data

Results flagged for a closer look

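Differences in rhythm between groups, each tested directly by limma's F test at an adjusted p under 0.05, are listed here. Among the 26 tested members, 21 differed in rhythm between day and night feeding on low salt and 9 by hours from the feeding phase. On high salt 18 differed, and 16 by hours from the feeding phase. Between the diets 2 differed at night feeding (Srebf2 and Dhcr7) and 2 at day feeding (Hmgcs1 and Mvk). The night fed count was 0 with cosine and sine terms and without the libraries of scale factor under 0.6. Between the Bmal1 knock out and the wild type 10 differed, with the 2 sets of knock out libraries unevenly spread over the times.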

How the results depend on the processing

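No count of called members moved by over 1.5 times under other pseudocounts, a filter at a mean of 5 or a replicate block. With FPKM as deposited, rhythmic members numbered 0 in the wild type, 26 in the Bmal1 knock out, 2 in the MR knock out, and on low salt 1 with night feeding and 11 with day feeding. Rhythm differences then numbered 25 (Bmal1 knock out), 12 (low salt, day against night), 0 (the same by hours from the feeding phase), 24 (high against low salt, night fed) and 4 (day fed). Level differences numbered 0 (low salt, day against night), 24 (high salt, day against night) and 26 (salt, night fed), and peaks that followed the feeding phase 0 on low and 2 on high salt. With array weights, rhythmic members numbered 12 in the wild type, 15 in the MR knock out and 21 in low salt night fed mice, rhythm differences 19 (Bmal1 knock out), 6 (MR knock out), 20 (low salt by hours from the feeding phase), 16 (salt, night fed) and 21 (salt, day fed), level differences 16 and 15 (day against night, low and high salt), 17 (salt, night fed) and 7 (salt, day fed), and 12 low-salt peaks followed. With the length score as a covariate, rhythmic members numbered 5, 7, 8 and 11 in wild type, MR knock out, low salt night fed and high salt day fed mice, level differences 4 and 5 (day against night, low and high salt) and 5 (salt, day fed), rhythm differences 5 (high salt by hours from the feeding phase), 5 (salt, night fed) and 6 (salt, day fed), and 7 and 8 peaks followed. With time as a factor 0 members were rhythmic in the wild type and 1 in low salt night fed mice. With cosine and sine terms and without libraries of scale factor under 0.6, 2 choices changed together, 2, 1 and 13 were rhythmic in Bmal1 knock out, high salt night fed and high salt day fed mice, 0, 10, 5, 0 and 0 differed in rhythm (Bmal1 knock out, high salt, high salt by hours from the feeding phase, salt night fed, salt day fed), 0, 0 and 2 in level (low salt, high salt, salt night fed), and 1 high-salt peak followed. Cosine and sine terms alone gave 15, 17 and 13, then 10, 16, 13, 1 and 1, then 0, 4 and 5, and 4. Quantile normalization gave 6 rhythmic members in low salt night fed mice, 0 level differences on low salt and 5 low-salt peaks that followed. Without a filter, with the compared conditions alone, and with cosine and sine terms, rhythmic members in high salt day fed mice numbered 13, 9 and 13, level differences on low salt 0 and on high salt 4 in each. The compared conditions alone gave 0, and cosine terms 1, rhythm differences by salt at night, and cosine terms 1 at day feeding and 5 level differences by salt at night. A window of 2 h gave 2 high-salt peaks that followed, and the 5 Bmal1 knock out libraries alone 9 level differences. The cause of these moves was not tested.

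Leaving out a replicate number or a single library gave these ranges of counts. Rhythmic members were 0 to 4 in the wild type, 10 to 16 in the Bmal1 knock out, 1 to 7 in the MR knock out, 1 to 9 and 16 to 21 in low salt night and day fed, and 11 to 19 and 2 to 22 in high salt night and day fed mice. Rhythm differences were 1 to 12 for the Bmal1 knock out, 16 to 22 and 0 to 13 on low salt (the second by hours from the feeding phase), 12 to 19 and 9 to 17 on high salt, 0 to 7 by salt at night and 0 to 3 by day. Level differences were 17 to 19 and 8 to 15 for the Bmal1 and MR knock outs, 0 to 2 and 0 to 10 for day against night on low and high salt, 4 to 11 by salt at night and 1 to 4 by day. Peaks that followed were 1 to 3 and 1 to 4. With a replicate block the counts were 14 rhythmic members in the Bmal1 knock out, 17 in high salt day fed mice and 7 level differences by salt at night, and no other count moved. The numbers did not pair the libraries, since 20 of 54 and 24 of 72 correlated best with their own number.

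Level differences of 48 member results changed sign with the scaling. With FPKM as deposited, Bmal1 knock out against wild type read -0.75 for Hmgcs1, -0.60 for Acat2, -0.13 for Mvk, -0.08 for Pmvk, -0.07 for Mvd, -0.30 for Fdps, -0.26 for Fdft1, -0.86 for Sqle, -0.54 for Cyp51, -0.80 for Nsdhl and -0.34 for Tmem97. High salt day against night feeding read 0.31 for Hmgcs1, 0.36 for Acat2, 0.22 for Mvk, 0.25 for Pmvk, 0.18 for Mvd, 0.34 for Idi1, 0.36 for Fdps, 0.25 for Fdft1, 0.38 for Cyp51, 0.43 for Ebp, 0.38 for Tm7sf2, 0.42 for Stard4, 0.25 for Lpin1 and 0.35 for Tmem97. High against low salt at night read -0.44 for Acat2, -0.35 for Mvk, -0.26 for Pmvk, -0.31 for Mvd, -0.43 for Fdps, -0.47 for Fdft1 and -0.33 for Tmem97. With the length score, the Bmal1 knock out read 0.32 for Idi1, 0.52 for Lss, 0.18 for Hsd17b7, 0.14 for Ggps1, 0.49 for Stard4 and 0.26 for Lpin1, the MR knock out 0.22 for Idi1 and Lss, 0.29 for Hsd17b7, 0.35 for Srebf2, 0.08 for Stard4 and 0.01 for Lpin1, and salt at night 0.15 for Stard4. Quantile normalization gave 0.16 for Lss and 0.00 for Ggps1 and Lpin1 in the Bmal1 knock out.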
